A study of Homo sapiens with 6 samples.

Results

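The small nucleolar RNA (snoRNA) host genes were examined in the human gastric cancer line HGC-27, with and without the peptide GLUP. Members were all genes whose symbol is SNHG followed by a number, and 4 host genes with other names, GAS5, ZFAS1, EPB41L4A-AS1 and DANCR. This gave 32 of the 62443 genes in the table, 28 of them named SNHG. The members were compared between 3 control libraries (Con) and 3 libraries of cells treated with GLUP. For Con, the labels give no treatment, while the study's methods say that control cells received the peptide's stocking buffer. GLUP is a cyclic peptide built on a stretch of VGLL4 through which that protein contacts the Hippo-pathway factor TEAD4. Both groups are the same unmodified line, so the data describe a single line in culture, and the labels give neither dose nor time. The study's methods say that RNA came from at least a pair of biological replicates, without saying which libraries are separate cultures, so that p-values measure the spread between these libraries, which may be technical.

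Most human snoRNAs are not transcribed from genes of their own. They lie in introns of host genes and are cut free after splicing. Box C/D snoRNAs then guide ribose methylation of ribosomal RNA, box H/ACA snoRNAs guide pseudouridylation, and the related scaRNAs guide the same changes on spliceosomal RNAs. Some host genes code for ribosomal proteins and translation factors. In the SNHG genes and their relatives the spliced exons make a long non-coding RNA, and several of these RNAs, GAS5 among them, are known to be degraded by nonsense-mediated decay when they are translated. Some of these genes, like ribosomal protein genes, start their transcripts with a C followed by a run of pyrimidines, the terminal oligopyrimidine (TOP) tract through which growth signals act on translation.

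To show how the starts of these genes differ, the sequence around the RefSeq start (GRCh38.p14) is given for the 6 members with an entry whose groups did not overlap between Con and GLUP, and for SNHG5 and ZFAS1, a pair of hosts with a tract whose groups overlapped. Each line holds 30 bases before the start and 50 from it, read in the direction of the gene. Capitals mark the longest run of pyrimidines near the start, and runs further into the gene are left in lower case.
GAS5 (chr1:173868996-173869075, minus strand): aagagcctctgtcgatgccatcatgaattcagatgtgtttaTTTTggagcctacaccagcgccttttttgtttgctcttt
SNHG1 (chr11:62855836-62855915, minus strand): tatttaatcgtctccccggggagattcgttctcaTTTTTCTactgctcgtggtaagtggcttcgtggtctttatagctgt
SNHG16 (chr17:76557734-76557813, plus strand): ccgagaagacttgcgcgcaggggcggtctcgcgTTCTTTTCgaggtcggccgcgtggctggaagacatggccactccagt
SNHG12 (chr1:28581824-28581903, minus strand): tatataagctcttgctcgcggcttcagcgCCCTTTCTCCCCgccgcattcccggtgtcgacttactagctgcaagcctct
SNHG8 (chr4:118278732-118278811, plus strand): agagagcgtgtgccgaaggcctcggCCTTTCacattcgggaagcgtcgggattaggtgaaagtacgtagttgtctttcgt
SNHG32 (chr6:31834886-31834965, plus strand): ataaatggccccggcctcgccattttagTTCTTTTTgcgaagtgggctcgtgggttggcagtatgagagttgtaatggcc
SNHG5 (chr6:85678684-85678763, minus strand): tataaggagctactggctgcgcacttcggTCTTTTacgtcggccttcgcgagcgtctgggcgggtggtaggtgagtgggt
ZFAS1 (chr20:49278612-49278691, plus strand): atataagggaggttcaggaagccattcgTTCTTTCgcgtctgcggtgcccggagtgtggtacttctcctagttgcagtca

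Of the 28 members with a RefSeq start, 7 had a C at the start followed by at least 4 pyrimidines, which is 25.0% of them, against 4.07% of the 35116 starts in the table. These were SNHG4, SNHG5, SNHG12, SNHG18, SNHG19, SNHG32 and ZFAS1. The 6 of them that could be tested lay between a log2 fold change of -0.71 (SNHG12) and 0.76 (SNHG32) in GLUP against Con. Without Con replicate 2, a library that stands apart, these values were -0.15 and 0.46. The letters GGAATG or CATTCC, the core of the element that TEAD factors bind on either strand, were found within 250 bases before to 50 after the start in 2 of the 28, SNHG12 and SNHG3 (7.14%), against 14.0% of all starts. Both searches were chosen after the members' sequences had been read. They describe letters in this window only, at the listed RefSeq start of each member. A tract at another start of a gene, for example of GAS5, would not be seen.

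The host genes differed widely in level. The deposited values are FPKM, fragments scaled to gene length and to the total of the library, so levels can be set side by side between genes. Of the 32 members, 26 reached a mean of 1 FPKM over the 6 libraries and were tested, 14 of them were at 10 FPKM or more and 3 at 100 or more. GAS5, a host of box C/D snoRNAs that takes its name from growth arrest, was the highest, and ranked between 57 and 90 among all genes in the Con libraries and between 109 and 114 in the GLUP libraries. SNHG29, DANCR, SNHG15 and SNHG8 followed by mean FPKM. Of the 6 members below the minimum, SNHG18, SNHG31, SNHG27 and SNHG22 passed 0.3 FPKM in at least 1 library, the highest value being 1.02 FPKM, in SNHG18. SNHG14, within which lie 72 annotated snoRNAs with a deposited value, reached no more than 0.0294 FPKM, and SNHG28 was listed at 0 in every library.

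**Figure D1:**
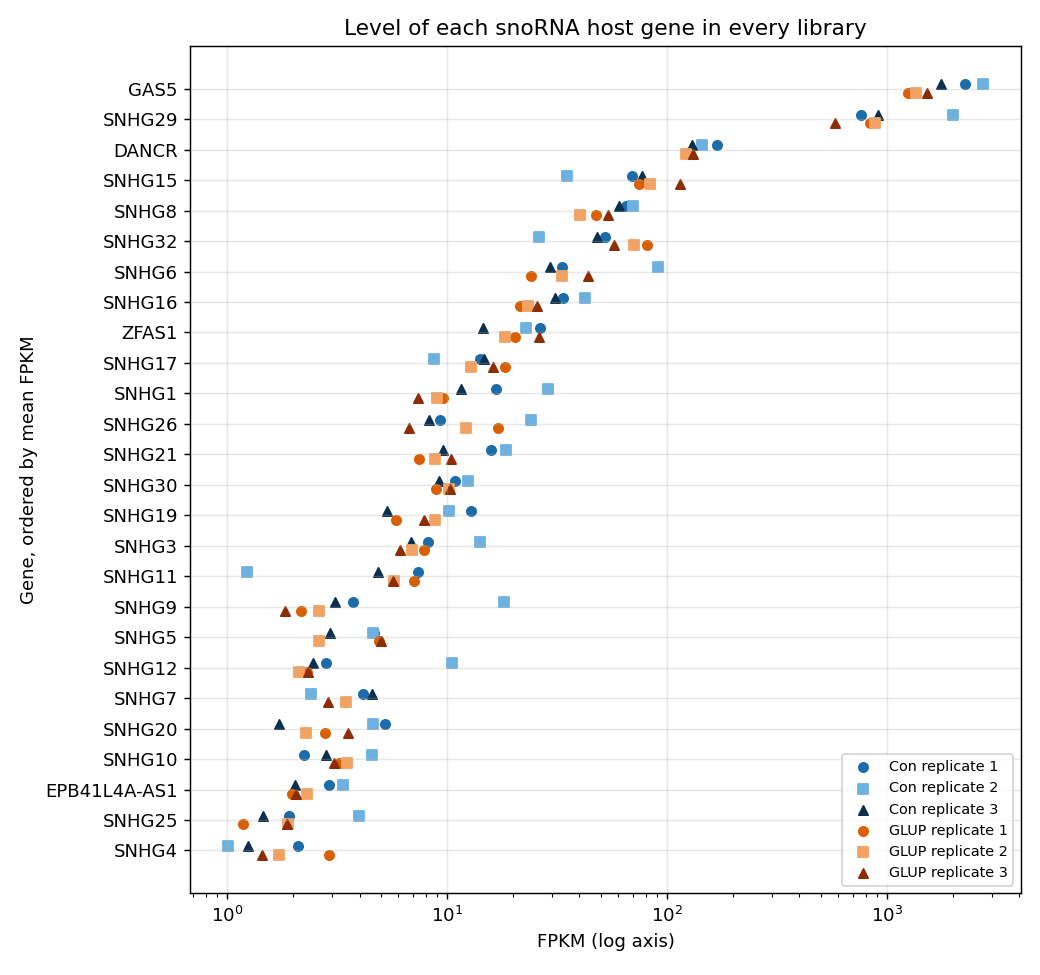
FPKM of the 26 tested snoRNA host genes in each of the 6 libraries, on a log axis, with genes ordered by their mean. Con libraries are blue, GLUP libraries orange, and the shape gives the replicate. GAS5 lies between 1254 and 2731 FPKM, and Con replicate 2 (light blue squares) stands apart from the other libraries in several genes.

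Some facts of the series bear on every value. FPKM summed to between 909735 and 965147 per library, mitochondrially encoded genes took 21.9 to 29.7% of it, and the files carry no read counts, so depth is unknown. Con replicate 2 correlated least with the rest, at a mean of 0.898 against 0.954 to 0.964. Its deviation from the gene means was related to GC content with a Spearman correlation of -0.60 across genes, which share that library, against -0.34 in Con replicate 1 and 0.34 to 0.54 in the rest. Markers looked up for the line gave VIM at 222 to 387 FPKM, KRT8, KRT18 and KRT19 between 0.764 and 2.51 FPKM, and EPCAM, CDH1, CDH2 and the leukocyte gene PTPRC at 0.124 FPKM or less. The epithelial markers that define most gastric carcinomas were therefore low or near 0. KRT18 (log2 fold change 0.67, adjusted p = 0.194) and KRT8 (0.41, adjusted p = 0.3) had the lowest p of these markers. As in any bulk sample, fewer cells of a kind and less RNA per cell cannot be told apart.

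Next, the comparison asked how the host genes stood after GLUP. On the log2(FPKM + 1) scale, 18 of the 26 tested members had a lower and 8 a higher mean in GLUP, with a median log2 fold change of -0.24. Among all 7406 genes tested, 65.5% had a lower mean, against 69.2% of the members, and the median was -0.23. With limma and Benjamini-Hochberg adjustment over all genes, 0 members passed an adjusted p of 0.05 (0.0% of all genes passed). The lowest adjusted p was 0.198 among the members and 0.0806 among all genes. At an unadjusted p under 0.05 the fit gave 3 members, all lower in GLUP (GAS5, SNHG1 and SNHG9), while 17.2% of all genes reached it in that direction and 4.46% in the other. All GLUP libraries lay below all Con libraries for 6 members, 23.1% of those tested, against 22.7% of all genes, and above them for 1 member, 3.85%, against 7.55%. The counts and the median of the group were thus near those over all genes tested. With 3 libraries against 3, the exact two-sided permutation test of a single gene cannot go below a p of 0.1, which these 7 members had.

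The direction of the group depended on scaling. With scaling by a trimmed mean of log ratios, the median moved to -0.02 for all genes and to -0.00012 for the members, with 13 members lower and 13 higher. Under that scaling, 3 members lay wholly below Con (14.7% of all genes did) and 4 wholly above (14.2% of all genes). For the members whose groups did not overlap, the difference from the all-gene median of the reported fit is therefore added.

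**Figure D2:**
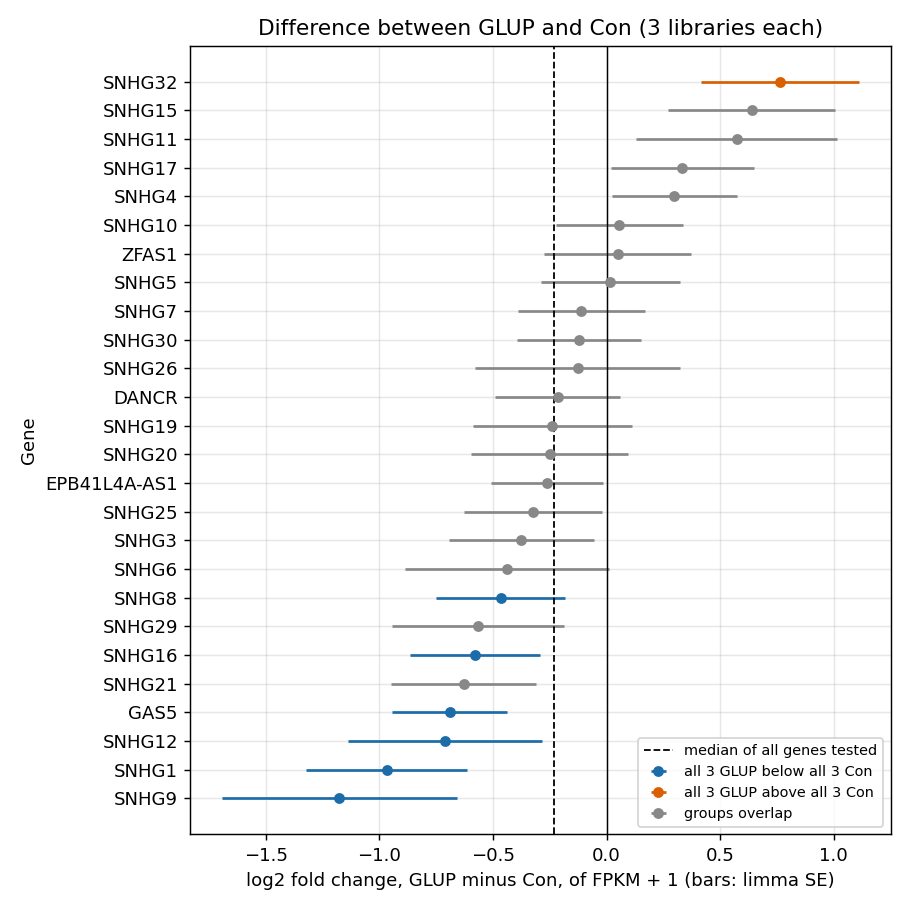
Log2 fold change of FPKM + 1 (GLUP minus Con) of the 26 tested snoRNA host genes, with limma standard errors as bars and 3 libraries per group. Blue and orange mark members whose groups do not overlap, and the dashed line is the median of all genes tested, -0.23. Values run from -1.18 (SNHG9) to 0.76 (SNHG32), and no member passed an adjusted p of 0.05.

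In the order of the replicate numbers, which is kept below, the Con libraries had 2261, 2731 and 1764 FPKM of GAS5 and the GLUP libraries had 1254, 1358 and 1523 FPKM. All GLUP values lay below the lowest Con value. The mean was 2252 ± 484 FPKM in Con and 1378 ± 136 in GLUP (SD, n = 3 each), with a log2 fold change of -0.69 (SE 0.25, limma adjusted p = 0.198), or -0.46 relative to the median of all genes. Because GAS5 and SNHG29 held 79.3 to 88.7% of the FPKM of all members, they set the sum over the group. That sum was 3596, 5339 and 3164 FPKM in Con and 2594, 2734 and 2652 FPKM in GLUP. Without this pair the sums were 575, 604 and 485 FPKM in Con and 504, 491 and 549 FPKM in GLUP, and the groups overlapped.

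SNHG1, a host of several box C/D snoRNAs that shares its promoter region with SLC3A2, was at 16.6, 28.8 and 11.6 FPKM in Con and at 9.54, 9.02 and 7.35 FPKM in GLUP. The GLUP libraries were the 3 lowest. The fitted log2 fold change was -0.97 (SE 0.36, limma adjusted p = 0.198), and -0.74 relative to the median of all genes. When Con replicate 3 was left out, limma called 1367 genes, and GAS5 (-0.85, adjusted p = 0.0492) and SNHG1 (-1.26, adjusted p = 0.0389) were the 2 members among them. In that fit 16.3% of all genes were called lower. Without Con replicate 2 the log2 fold change of SNHG1 was -0.63 and that of GAS5 was -0.54.

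SNHG16 and SNHG8 differed less, with tighter Con libraries. SNHG16, a host of box C/D snoRNAs of the SNORD1 family, was at 33.6, 42.5 and 31.1 FPKM in Con and at 21.4, 23.3 and 25.6 FPKM in GLUP. This gave a log2 fold change of -0.58 (SE 0.29, limma adjusted p = 0.256), and -0.35 relative to all genes. SNHG8, whose intron holds a box H/ACA snoRNA, was at 65.0, 70.4 and 60.6 FPKM in Con and at 47.8, 40.3 and 53.7 FPKM in GLUP. The log2 fold change of -0.47 (SE 0.28, limma adjusted p = 0.321) was -0.24 relative to all genes, and became 0.06 when a trend in GC content and length was removed from each library. At 39.0%, SNHG8 had the lowest GC content of the tested members.

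For SNHG9 and SNHG12 the fold change rested largely on Con replicate 2. SNHG9, a short host of a box H/ACA snoRNA beside RPS2, was at 3.74, 18.2 and 3.10 FPKM in Con and at 2.18, 2.61 and 1.83 FPKM in GLUP. The value of -1.18 on the log2 scale (SE 0.52, limma adjusted p = 0.224), or -0.94 relative to all genes, became -0.47 without Con replicate 2. SNHG12 was at 2.80, 10.6 and 2.46 FPKM in Con and at 2.30, 2.13 and 2.34 FPKM in GLUP. Apart from Con replicate 2, the libraries of both groups lay close together. The log2 fold change of -0.71 (SE 0.43, limma adjusted p = 0.314), or -0.48 relative to all genes, became -0.15 without that library.

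The member that stood above Con in every GLUP library was SNHG32, a host of the box C/D snoRNAs SNORD48 and SNORD52 in the major histocompatibility region of chromosome 6. It was at 52.0, 26.1 and 48.3 FPKM in Con and at 80.9, 71.0 and 57.6 FPKM in GLUP. The log2 fold change was 0.76 (SE 0.35, limma adjusted p = 0.235), or 0.99 relative to the median of all genes, and 0.46 without Con replicate 2. With scaling to the total without mitochondrial genes it was 0.71 and the groups of SNHG32 overlapped. Under that scaling SNHG15 was the member wholly above Con.

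Among the 19 members whose groups overlapped, log2 fold changes lay between -0.63 and 0.64 and adjusted p between 0.263 and 0.976. SNHG29, a host of box C/D snoRNAs, was at 760, 2004 and 915 FPKM in Con and at 837, 885 and 579 FPKM in GLUP. Con replicate 2 was more than 2-fold above every other library there, and the log2 fold change of -0.57 (SE 0.38) became -0.14 without it. DANCR, which hosts the H/ACA snoRNA SNORA26 and is known for restraining differentiation, was at 169, 144 and 130 FPKM in Con and at 126, 122 and 131 FPKM in GLUP. It had a log2 fold change of -0.21 (SE 0.28), close to the median of all genes. SNHG15, at 69.4, 35.1 and 77.0 FPKM in Con and 75.0, 83.9 and 115 FPKM in GLUP, had a log2 fold change of 0.64 (SE 0.37), and 0.29 without Con replicate 2.

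ZFAS1, a host of the SNORD12 family, was at 26.3, 22.9 and 14.5 FPKM in Con and at 20.3, 18.3 and 26.3 FPKM in GLUP. EPB41L4A-AS1, which hosts SNORA13, was at 2.90, 3.36 and 2.04 FPKM in Con and at 1.96, 2.32 and 2.05 FPKM in GLUP. With log2 fold changes of 0.05 (SE 0.32) and -0.26 (SE 0.25), neither stood apart between the groups. SNHG5, whose box C/D snoRNAs belong to the SNORD50 family, had means of 4.06 ± 0.968 FPKM in Con and 4.18 ± 1.35 in GLUP (SD, n = 3 each).

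Lower in GLUP by their means, but with overlapping groups, were SNHG21 (14.6 ± 4.54 FPKM in Con and 8.86 ± 1.49 in GLUP), SNHG6 (51.2 ± 34.4 and 33.7 ± 9.82) and SNHG3 (9.73 ± 3.90 and 6.97 ± 0.863). All are means ± SD over 3 libraries. The same held with smaller differences for SNHG25 (2.45 ± 1.35 and 1.65 ± 0.401), SNHG20 (3.84 ± 1.86 and 2.87 ± 0.635) and SNHG19 (9.45 ± 3.83 and 7.51 ± 1.53). SNHG26 (13.9 ± 8.78 and 12.0 ± 5.15), SNHG30 (10.8 ± 1.62 and 9.81 ± 0.754) and SNHG7 (3.70 ± 1.15 and 3.27 ± 0.332) had log2 fold changes between -0.13 and -0.11. Of the 9 genes named here as lower, SNHG21 alone differed by more than the SD of Con. Higher by their means were SNHG11 (4.49 ± 3.09 and 6.15 ± 0.804), SNHG17 (12.5 ± 3.33 and 15.8 ± 2.77) and SNHG4 (1.45 ± 0.568 and 2.02 ± 0.777), and SNHG10, a host of SCARNA13, was at 3.20 ± 1.20 and 3.26 ± 0.234. Without Con replicate 2 the log2 fold change went from 0.57 to 0.02 in SNHG11, from -0.44 to 0.07 in SNHG6, from -0.38 to -0.10 in SNHG3, from -0.32 to -0.02 in SNHG25, from -0.13 to 0.32 in SNHG26 and from 0.33 to 0.11 in SNHG17.

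Correcting each library for GC content and length changed which members separated. With it, 5 members lay wholly below Con (13.9% of all genes did) and 3 wholly above (14.4%). SNHG7, the tested member with the highest GC content (65.9%), went from -0.11 to -0.51 (limma adjusted p = 0.228) and lay wholly below Con, as did GAS5, SNHG1, SNHG9 and SNHG16. SNHG4 (0.74) and SNHG30 (0.41) joined SNHG32 (0.81) above Con, while the groups of SNHG12 and SNHG8 overlapped.

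**Figure D3:**
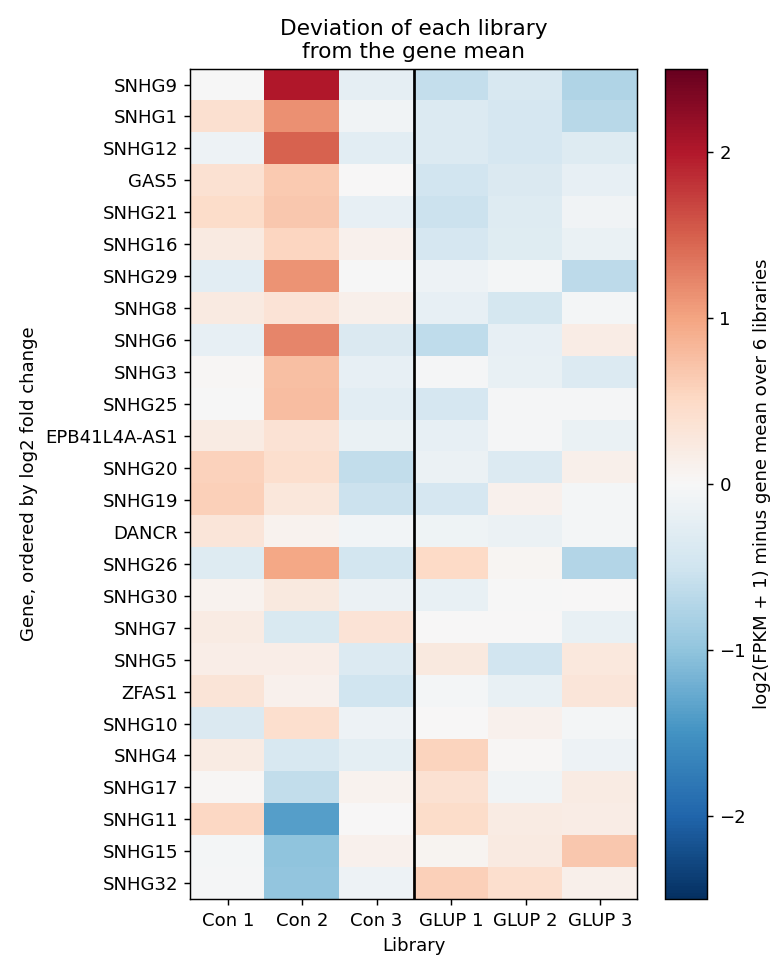
Deviation of log2(FPKM + 1) from the gene's mean over 6 libraries, for the 26 tested snoRNA host genes, ordered by log2 fold change. Red is above and blue below the mean, and the vertical line separates Con from GLUP. Con replicate 2 is the highest library for 15 of the 26 genes and the lowest for 6.

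The spread of the host genes was larger in Con than in GLUP. On the log2 scale the median SD was 0.48 in Con and 0.21 in GLUP, and 23 of the 26 members had the larger SD in Con. Over all genes tested the medians were 0.43 and 0.20, and 80.7% had the larger SD in Con. Con replicate 2 was the highest library for 15 members and the lowest for 6, while it was highest for 37.6% and lowest for 28.8% of all genes. Distances to the mean of the other libraries were taken on the log2(FPKM + 1) scale, where low genes differ less than in FPKM. On it, Con replicate 2 was more than 2-fold above for SNHG9, SNHG12, SNHG6, SNHG1, SNHG29 and SNHG26. It was more than 2-fold below for SNHG11, SNHG15 and SNHG32. SNHG25 fell short on this scale, at 0.91 log2 units above, though Con replicate 2 had 2.09 times the FPKM of its highest other library. The FPKM of all snoRNA and scaRNA genes summed to 148 in that library, against 65.8 to 76.2 in the others. Across the 26 members the log2 fold change had a Spearman correlation of 0.17 with GC content, and over 7279 genes it was 0.56; the points share the same 6 libraries. The part of base composition in the members' values was not tested beyond the removal of its trend.

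**Figure D4:**
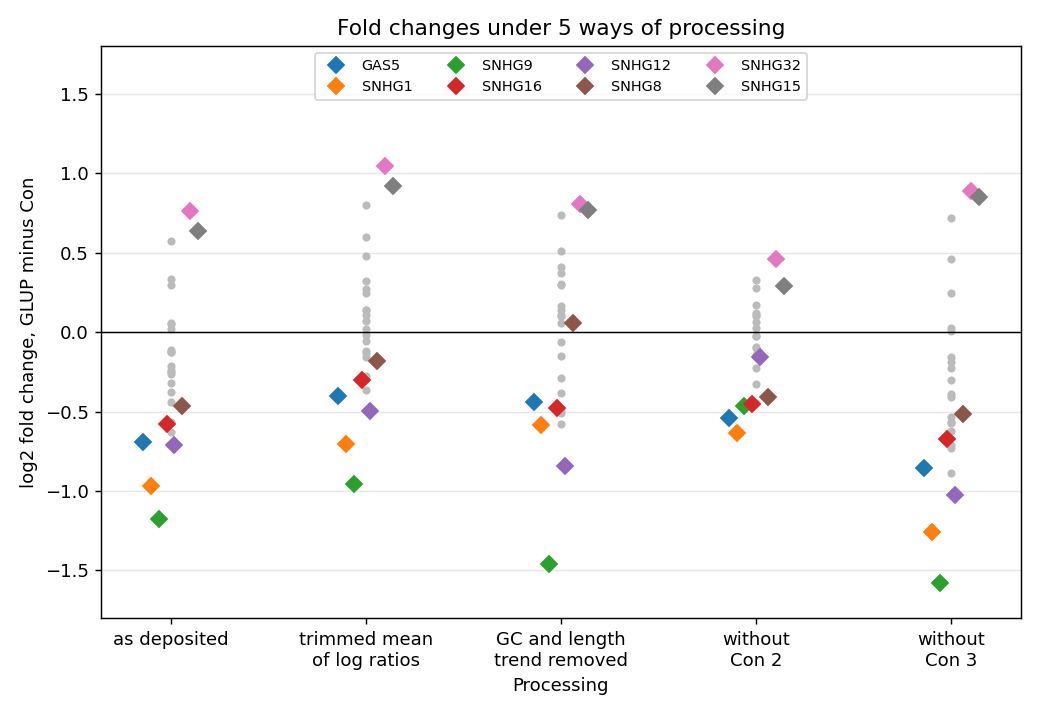
Log2 fold change (GLUP minus Con) of the tested snoRNA host genes under 5 ways of processing the values, with the 7 members whose groups do not overlap and SNHG15 in colour and the others in grey. SNHG12 moves from -0.71 to -0.15 and SNHG9 from -1.18 to -0.47 without Con replicate 2, and SNHG8 moves to 0.06 when the GC and length trend is removed.

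The snoRNAs inside the members were then examined. Of the snoRNAs and scaRNAs with a deposited value of their own, the annotation places 23 within 16 of the tested members. Among these, 22 were above 0 in some library and 4 reached a mean of 1 FPKM. A hosted snoRNA without such a value is not counted, and SNHG1, SNHG5, SNHG8, SNHG9 and SNHG29 are not among the 16. Whether reads there came from the free snoRNA or from the unspliced intron of its host was not tested. The values are therefore not read as levels of the free snoRNAs. SNORD78, for example, had a mean of 5.77e-05 FPKM inside GAS5, whose own mean was 1815 FPKM. SNORD99, in SNHG12, was at 1.33, 7.99 and 1.46 FPKM in Con and at 1.07, 1.09 and 0.238 FPKM in GLUP. As in its host, Con replicate 2 was the highest library. The log2 fold change of SNORD99 was -1.09 (limma adjusted p = 0.227), beside -0.38 for SNORA26 in DANCR, 0.06 for SNORD104 in SNHG25 and 0.31 for SNORD60 in SNHG19. Over the whole genome 296 of 839 snoRNA and scaRNA genes were above 0 and 15 could be tested. Their median log2 fold change was -0.38, against -0.23 over all genes. Of these 15, 10 had a lower mean in GLUP, as 65.5% of all genes did, and 0 passed the adjusted threshold. In 2 of them all GLUP libraries lay below Con, where 22.7% of all genes did. SNORA77 (-0.73, adjusted p = 0.198) and SNORA33 (-0.84, adjusted p = 0.22) had the lowest p.

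The protein partners of snoRNAs were taken next. All 8 core proteins of the snoRNA particles were tested, 6 with a lower mean in GLUP (65.5% of all genes had one). Their median log2 fold change was -0.48, against -0.23 over all genes, and 0 passed the adjusted threshold. NOP58, a core protein of box C/D particles, was at 179, 255 and 104 FPKM in Con and at 69.6, 67.4 and 69.9 FPKM in GLUP (-1.27, SE 0.36, limma adjusted p = 0.194). NHP2, a core protein of box H/ACA particles, was at 413, 196 and 561 FPKM in Con and at 613, 625 and 767 FPKM in GLUP (0.90, SE 0.38, adjusted p = 0.216). Of the 8 core proteins, 3 lay wholly below Con (NOP58, DKC1 and GAR1) and 2 wholly above (NHP2 and NOP56), against 22.7% and 7.55% of all genes. Among the assembly factors 8 of 11 were tested, with a median of -0.48 (-0.23 over all genes), 5 lower means (65.5% of all genes) and 0 past the threshold. The lowest p belonged to RPAP3, a subunit of the chaperone complex R2TP (-0.84, adjusted p = 0.21), and SHQ1, a chaperone of dyskerin (-0.50, adjusted p = 0.217).

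Factors of nonsense-mediated decay, the pathway that degrades several of these host RNAs, were measurable for 8 of 16 genes. Their median log2 fold change was -0.38, against -0.23 over all genes. Of the 8, 6 had a lower mean, as 65.5% of all genes did, and 0 passed the threshold. EIF4A3, a core protein of the exon junction complex, was at 15.4, 8.40 and 4.42 FPKM in Con and at 2.69, 3.40 and 3.60 FPKM in GLUP (-1.16, SE 0.39, limma adjusted p = 0.197).

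Host genes that code for proteins gave another picture by their median. Of 32 such genes 31 were tested, 17 had a higher and 14 a lower mean in GLUP, and the median log2 fold change was 0.05, against -0.24 for the non-coding hosts; the difference between these medians was not tested. RPL23A (0.73, limma adjusted p = 0.198) and RPL10 (1.29, adjusted p = 0.199), both proteins of the large ribosomal subunit, had the lowest p, and 0 passed. RPL10 was at 1273, 376 and 1841 FPKM in Con, with Con replicate 2 far below the other libraries, and at 2482, 2206 and 2351 FPKM in GLUP. In RPL23A that library lay between the other Con libraries (900, 1149 and 1312 FPKM). How the median of the protein-coding hosts depends on scaling, GC content or Con replicate 2 was not tested. The 18 mRNAs with a TOP tract that code for no ribosomal protein had a median of -0.11 (-0.23 over all genes). Of them 11 had lower means (65.5% of all genes did) and 0 passed the threshold. PABPC1, the cytoplasmic poly(A)-binding protein (-0.80, adjusted p = 0.198), and EIF4B, a translation initiation factor (-0.95, adjusted p = 0.206), had the lowest p there.

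Finally, the neighbours that start beside a host gene in the opposite direction were compared with it. Within 1000 bases of a member's start, 8 protein-coding genes start divergently, of which 6 were tested, with a median log2 fold change of -0.04 and 0 past the adjusted threshold. In 3 pairs both genes were tested. SLC3A2, a subunit of amino acid transporters, was at 93.0, 20.2 and 160 FPKM in Con and at 185, 130 and 121 FPKM in GLUP (1.07, SE 0.63, limma adjusted p = 0.308), opposite in sign to SNHG1. Con replicate 2 held the lowest SLC3A2 value and the highest SNHG1 value of all libraries. RPS2 beside SNHG9 had a log2 fold change of -0.04, and ZNFX1 beside ZFAS1 one of 0.29. SEMA5A, beside the untested SNHG18, had the lowest p of these neighbours (-0.75, adjusted p = 0.261).

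Some members share exon bases with another gene in the GENCODE 44 annotation lifted to GRCh37. Since counting by strand is not stated, their reads cannot be told apart with certainty from those of a partner. On the opposite strand these include SNHG29 with LRRC75A (500 bases), DANCR with ENSG00000286161 (556), ZFAS1 with ZNFX1 (249), SNHG12 with TRNAU1AP (8), SNHG7 with DIPK1B (1482), SNHG10 with GLRX5 (301) and SNHG4 with SIL1 (118). On the same strand they are SNHG3 with RCC1 (242) and SNHG4 with MATR3 (626). For SNHG29 the partner was low, with a mean of 3.07 FPKM for LRRC75A. In SNHG4 both partners were above the member, SIL1 at 13.8 FPKM and MATR3 at 3.47 FPKM. The partner of SNHG10 was above it as well, GLRX5 at 7.98 FPKM against a mean of 3.23 FPKM. In that annotation GAS5 (ENSG00000234741) spans chr1:173827697-173838020 on the minus strand, SNHG1 chr11:62619450-62623425 on the minus strand and SNHG32 chr6:31802385-31807543 on the plus strand, each annotated as a long non-coding RNA.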

How the data were processed

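RNA-seq libraries of HGC-27 total RNA, 3 Con and 3 GLUP, were grouped by their titles. The authors deposited FPKM per gene, normalised to gene length and library total. Their processing notes list HISAT2, Cufflinks and RSEM, without roles or versions, and the build GRCh38.p10, while the identifiers carry the suffixes of a GENCODE annotation lifted to GRCh37. Coordinates here come from GENCODE 44 lifted to GRCh37 and start sequences from RefSeq on GRCh38.p14, and these builds were not mixed. The table had 62492 rows. The 49 pseudoautosomal copies on chromosome Y were summed with their counterparts, and 62162 of 62443 genes had a symbol. The files give no counts, so depth and counting error are unknown.

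The 7406 genes whose mean reached 1 FPKM were fitted on log2(FPKM + 1) with limma 3.58.1 (R 4.3.3, eBayes with trend, no covariates, two-sided, Benjamini-Hochberg adjustment over all of them). Fold changes on this scale understate those of low genes. The fit was also run on simulated data with known changes. In that simulation both groups had the same spread, no library stood apart and there was no GC trend. It therefore cannot show how the fit behaves on these libraries, and no result rests on it. Python 3.11.15, pandas 2.3.3, numpy 2.4.6, scipy 1.17.1 and matplotlib 3.10.9 were used for tables and figures. Alternatives were pseudocounts of 0.1 and 0.01, no filter, a minimum of 5 FPKM, scaling by a trimmed mean of log ratios (30% by ratio, 5% by level), upper quartile, quantiles or the total without mitochondrial genes, eBayes without trend, the replicate number as a block, loess correction of each library for GC content and length (span 0.5, 98.3% of tested genes with values), and leaving out each library. Median centring, and the loess correction together with the block, were chosen after seeing the data.

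Every member with a mean of at least 1 FPKM was named, with each library's value for those whose groups did not overlap, the 5 highest, and GAS5, ZFAS1, EPB41L4A-AS1 and DANCR. Members below the minimum were named above 0.3 FPKM. Other lists (snoRNA particle proteins and assembly factors, nonsense-mediated decay factors, protein-coding hosts, non-ribosomal TOP mRNAs, snoRNA genes, neighbours) are given by counts and the 2 lowest p, except for results that are not reported here. Members and lists were chosen with earlier results of these data known. The neighbours were narrowed to divergent protein-coding genes, and the start and motif searches were set, after the overlaps and sequences had been seen. Of the 9 cell markers looked up, 8 matched a symbol. SNHG6, SNHG9, SNHG15 and SNHG25 had no entry among the start sequences.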

Additional observations from a re-analysis of the deposited data

How the results depend on the processing

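Over 19 alternatives, 14 of the 26 tested host genes never changed sign and 12 did, in 47 values. None of the 12 was beyond 0.47 on the log2 scale in the reported fit. Of these alternatives, eBayes without trend, the replicate block, no filter and the minimum of 5 FPKM cannot change a fold change. Trend removal with the block repeats the fold changes of trend removal without it, so those reversals are counted again. The reported fit called 0 genes. A minimum of 5 FPKM, eBayes without trend, the replicate block, and the block with the GC and length trend removed each called 1 gene, and the trend alone 2, with 0 host genes in each. Leaving out each library gave 0 to 1367 genes, 0 to 2 host genes called, 6 to 14 wholly below (24.1 to 43.1% of all genes) and 1 to 3 wholly above Con (9.21 to 13.7%), and a median of -0.46 to -0.10; the high counts came without Con replicate 3, and without Con replicate 2 limma called 3 genes. Host genes wholly below and above numbered 3 and 4 with the trimmed mean (14.7 and 14.2% of all genes), 3 and 3 with the upper quartile (14.6 and 14.1%), 2 and 3 with median centring, chosen after seeing the data (13.2 and 15.6%), 5 and 3 with quantiles (16.1 and 13.0%) and 5 and 3 with the trend removed (13.9 and 14.4%). With the total without mitochondrial genes, 7 host genes lay wholly below and 1 wholly above Con, beside 1764 and 449 of the 7406 genes tested. The median of the host genes became 0.056 with the trend removed, with or without the block. The replicate numbers did not pair the libraries (deviations of same-numbered libraries correlated at 0.13, -0.01 and -0.17), and not every library correlated best with its own number. In this balanced design the block cannot change a fold change, only its standard error and p-value. Signs turned for DANCR (0.071 trimmed mean, 0.076 upper quartile, 0.050 median centring, 0.056 trend removed), SNHG8 (0.056) and SNHG6 (0.11) with the trend removed, SNHG26 (0.14 under the 4 scalings of trimmed mean, upper quartile, quantiles and median centring, 0.17 trend removed), SNHG30 (0.14, 0.14, 0.15, 0.14 and 0.41 in the same order), SNHG19 (0.021, 0.026, 0.052 and 0.026) and SNHG7 (0.11, 0.11, 0.12 and 0.15), SNHG20 (0.011 quantiles, 0.015 median centring), EPB41L4A-AS1 (0.0018 median centring, 0.10 trend removed), and, with the total without mitochondrial genes, ZFAS1 (-0.0010) and SNHG5 (-0.026). Each of these trend values was the same with the block, as the balanced design requires. Leaving out a library gave -0.19 to 0.22 for ZFAS1, -0.15 to 0.26 for SNHG5, -0.40 to 0.32 for SNHG26, -0.73 to 0.066 for SNHG6, -0.56 to 0.0023 for SNHG19, -0.11 to 0.28 for SNHG10 and -0.33 to 0.028 for SNHG7. The cause of these changes was not tested. Without Con replicate 2 the log2 fold change of 21 of the 26 host genes moved by over 1.5 times or turned, the others being GAS5, DANCR, SNHG8, SNHG16 and SNHG21; with the trend removed 19 did.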
